A study of Mus musculus with 9 samples.

Results

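The nuclear-encoded subunits of oxidative phosphorylation (OXPHOS) were taken by gene symbol, as every gene named as an NADH dehydrogenase subunit (Nduf followed by a, b, c, s or v and a number), succinate dehydrogenase subunit (Sdha to Sdhd), ubiquinol-cytochrome c reductase subunit (Uqcr), cytochrome c oxidase subunit (Cox4 to Cox8 followed by a, b or c) or ATP synthase subunit (Atp5). Of the 43808 genes in the files, 87 matched, after 13 symbols with a pseudogene suffix were left out. The subunit genes *Cox4i1*, *Cox4i2*, *Cyc1* and *Ndufab1* do not match the rule. They are read apart below, with *Cycs* and *Atpif1*, as chain proteins outside the name rule. Of these 87, 80 had 20 reads or more in 2 or all 3 libraries of some genotype and were among the 15184 genes tested. They comprised 38 of 39 genes of complex I, all 4 of complex II, 7 of 8 of complex III, 15 of 19 of complex IV and 16 of 17 of complex V. The 7 left out were *Uqcrc1*, *Cox6a2*, *Cox7b2*, *Cox8c* and *Ndufb11b*, listed at 0 in every library, and *Cox8b* and *Atp5l*, whose second-highest count in any genotype was 1 and 3 reads, while the lowest such count among the 80 was 58 reads, for *Ndufa11b*. The minimum was met in all 3 genotypes by 73 genes, in 2 by *Ndufb4c* and *Ndufs5*, and in a single genotype by *Ndufa11b* (homozygous mutant), *Ndufb4*, *Cox7a1* and *Atp5g2* (heterozygous) and *Ndufa4l2* (wild-type). *Ndufa4* and *Ndufa4l2*, named after complex I, were placed in complex IV, where the NDUFA4 protein is found.

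The libraries hold RNA of inner-ear hair cells (HCs), which sense sound and head movement, from P1 mice. Each of 9 mice gave 1 library, with 3 homozygous mutants (Mir96Dmdo/Dmdo, mice 43, 46 and 47), 3 heterozygotes (Mir96+/Dmdo, mice 45, 48 and 51) and 3 wild-type mice (Mir96+/+, mice 44, 55 and 59). Dmdo (diminuendo) is a point mutation in the seed of miR-96, the short stretch by which this microRNA of sensory cells pairs with its targets. All 9 mice, controls included, carried the Atoh1/nGFP reporter, in which an enhancer of the HC gene *Atoh1* drives nuclear GFP, on a mixed C3HeB/FeJ and C57BL6 background. Cells of the cochlea and the vestibular organs positive for GFP and for the epithelial protein CD326 were sorted together, so the 2 organs cannot be told apart here.

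Oxidative phosphorylation takes place in the inner mitochondrial membrane. Complexes I and II pass electrons from NADH and succinate to ubiquinone, complex III passes them on to cytochrome c, and complex IV hands them to oxygen. Complexes I, III and IV pump protons as they do so, and complex V, the ATP synthase, lets the protons flow back to make ATP. Most subunits are encoded in the nucleus and made on cytosolic ribosomes, while a small number of core subunits are encoded by mitochondrial DNA. HCs have a high energy demand, and inherited defects of mitochondrial DNA are a known cause of hearing loss.

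The mature microRNA and the only match to its seed found in a 3′ UTR of these genes are shown because the genotypes differ in that seed. Bases 2 to 8 of the wild-type microRNA (RefSeq, GRCm38.p6, chr6:30169506-30169528, minus strand) and the matching bases of the *Atp5g1* transcript (GENCODE vM21, a gene of chromosome 11) are in capitals.
mmu-miR-96-5p: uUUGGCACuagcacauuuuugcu
Atp5g1 3′ UTR: ttctgtggcctGTGCCAAgacctcccttcg
Of 76 OXPHOS subunit genes tested that have an annotated 3′ UTR, 1 (1.32%) held the letters GTGCCAA, against 1220 of 12910 coding genes tested (9.45%). The 3′ UTRs of the OXPHOS genes were short, with a median of 176.5 bases against 1122 bases for all coding genes. The match in *Atp5g1* lies in an annotated UTR of 4252 bases and says nothing of binding. *Atp5g1*, which encodes an isoform of the proton-carrying subunit c of complex V, had 13.7, 11.98 and 10.7 CPM in homozygous mutant HCs, 32.7, 8.37 and 12.5 CPM in heterozygous HCs and 13.1, 12.3 and 0.55 CPM in wild-type HCs (CPM, counts scaled by edgeR's TMM factors to 1000000 reads of the genes tested). The homozygous mutant values lay close to those of wild-type 44 and 55 (log2 fold change 0.49, SE 1.01, adjusted p = 0.898). Here and below, adjusted p-values and standard errors (SE) come from the quasi-likelihood fit of edgeR, with Benjamini-Hochberg adjustment over all genes tested.

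The libraries held 18175317 to 34873964 counted reads. Reads of the 87 OXPHOS genes made up 1.369%, 1.23% and 1.356% of all counts in homozygous mutant libraries 43, 46 and 47, 1.258%, 0.8312% and 0.9336% in heterozygous libraries 45, 48 and 51, and 1.361%, 0.7292% and 0.8119% in wild-type libraries 44, 55 and 59. The 5 mice numbered 47 or lower, of all 3 genotypes, were thus at 1.23% to 1.369%, and the 4 mice numbered 48 or higher, of the heterozygous and wild-type genotypes, at 0.7292% to 0.9336%. No label gives the meaning of the mouse numbers, and the cut between 47 and 48 is where the shares of these same genes divide. Results at this cut below, also as a term in the fit, describe the split and do not test it. No homozygous mutant is numbered above 47, so that genotype has values on 1 side of this split only. Sex was unbalanced between the genotypes as well. All 3 homozygous mutant libraries had many reads of the Y-linked *Ddx3y* (908 to 1468) and few of *Xist* (93 to 286), the RNA of the inactive X, as did heterozygous 45 and 51 and wild-type 55, whereas heterozygous 48 and wild-type 44 and 59 had 17313 to 28296 reads of *Xist* and 4 to 19 of *Ddx3y*. HC markers were abundant in every library, with *Pou4f3*, a transcription factor of HCs, at 1021 to 1251 CPM. The summed level of 12 HC markers was 9741 to 11548 CPM in homozygous mutant, 11507 to 14539 CPM in heterozygous and 12215 to 17140 CPM in wild-type libraries. The summed level of 10 supporting cell markers was 3263 to 3549 CPM in homozygous mutant, 2516 to 3004 CPM in heterozygous and 2334 to 3233 CPM in wild-type libraries. Neither sum overlapped between homozygous mutant and wild-type libraries, and their part in the results that follow was not tested. The supporting cell sum was carried by *S100a1*, a calcium-binding protein gene, at 2534, 2563 and 2334 CPM in homozygous mutant HCs, 2122, 1214 and 1316 CPM in heterozygous HCs and 2100, 1075 and 1347 CPM in wild-type HCs. Of the 10 supporting cell markers, 3 had a positive and 7 a negative fold change of homozygous mutant over wild-type HCs (median log2 -0.39, 0 called). Of the 12 HC markers, 4 had a positive and 8 a negative one (median log2 -0.18). Of these 12, 1 was called lower, where 0.915% of all genes tested were. At an unadjusted p under 0.05, 5 HC markers (41.7%) were lower and 1 (8.33%) higher, beside 8.19% and 4.92% of all genes tested. Of the supporting cell markers, 1 (10%) was in each direction. In bulk RNA, fewer cells of a type and less RNA per cell cannot be told apart. All 5 red blood cell markers were listed at 0 in all 9 libraries. Summed mesenchyme markers (6 genes) were at 70.6 to 779 CPM in homozygous mutant, 69.6 to 158 CPM in heterozygous and 92.8 to 242 CPM in wild-type libraries, with the highest sum in homozygous mutant 46. Summed Schwann cell markers (5 genes) were at 98.4 to 264, 80.7 to 114 and 54.5 to 208 CPM in the same order of genotypes, summed neuronal markers (6 genes) at 131 to 181, 146 to 189 and 174 to 196 CPM, and the sums of endothelial, macrophage and melanocyte markers were at most 19.9 CPM.

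**Figure D1:**
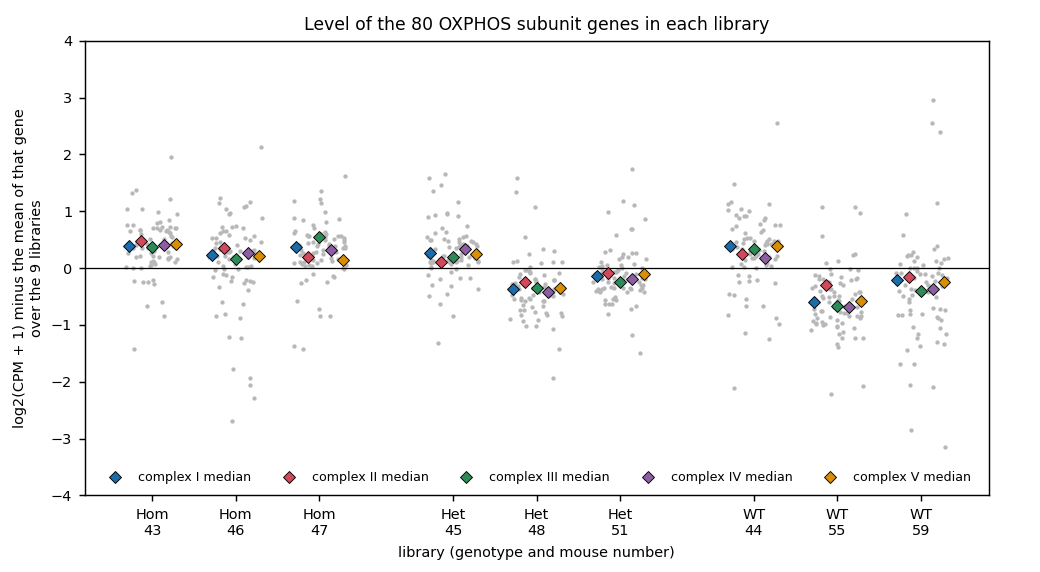
Level of each of the 80 OXPHOS subunit genes tested in each library, as log2(CPM + 1) minus that gene's mean over the 9 libraries, for homozygous mutant (Hom), heterozygous (Het) and wild-type (WT) mice with their numbers. Grey points are genes and diamonds are the medians of the 5 complexes, which lie above 0 in the 5 mice numbered 47 or lower and below 0 in the 4 mice numbered 48 or higher.

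The same split ran through all 5 complexes. On the scale of log2(CPM + 1) minus the gene's own mean over the 9 libraries, the median over the 80 genes was 0.41, 0.22 and 0.33 in homozygous mutant libraries 43, 46 and 47, 0.24, -0.36 and -0.17 in heterozygous libraries 45, 48 and 51, and 0.33, -0.59 and -0.26 in wild-type libraries 44, 55 and 59. In the 5 libraries of mice numbered 47 or lower, 54 to 71 of the 80 genes stood above their own mean, and in the 4 others 8 to 24 did. For 32 of the 80 genes (40%), all 5 libraries of the lower numbers were above all 4 of the higher numbers, and for 0 of the 80 was it the other way round, beside 3.61% of all genes tested with the lower numbers on top. Since the summed reads of these genes already divide at this cut, the 40% is a description and no test. The split was not particular to OXPHOS genes: it was found in 38 of 84 cytosolic ribosomal protein genes (45.2%), whose medians were 0.59, 0.49 and 0.58 in homozygous mutant, 0.23, -0.40 and -0.33 in heterozygous and 0.39, -0.81 and -0.64 in wild-type libraries, in the order of their numbers. The medians of complexes I, III, IV and V in wild-type 55, the lowest library, were -0.59, -0.67, -0.68 and -0.58, while complex II was at -0.30. The over-all-gene median in the 9 libraries stayed between -0.06 and 0.06 on this scale.

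Between homozygous mutant and wild-type HCs, the OXPHOS genes lay mostly higher in the mutants, and 1 passed the test. At a false discovery rate under 10% with a fold change above 1.5, edgeR called 1 of the 80 genes higher, *Ndufs4*, and 0 lower, where 0.237% of all genes tested were called higher and 0.915% lower. DESeq2 called 4 higher and 1 lower, where 2.34% and 4.02% of all genes tested were. The fold change was above 0 on the log2 scale for 64 of the 80 genes, beside 49.1% of all genes tested. The median log2 fold change was 0.42 over the 80 genes and -0.02 over all genes tested. By complex the median was 0.39 for complex I (30 of 38 genes positive), 0.39 for complex II (4 of 4), 0.53 for complex III (6 of 7), 0.57 for complex IV (11 of 15) and 0.45 for complex V (13 of 16). At an unadjusted p under 0.05, 18 genes (22.5%) were higher and 1 (1.25%) lower, beside 4.92% and 8.19% of all genes tested. In 17 genes all 3 homozygous mutant libraries were above all 3 wild-type libraries and in 1 gene all were below, beside 7.61% and 8.9% of all genes tested. The 1 lower gene was *Ndufa4l2* in each of these counts, that of DESeq2 included. It was tested only through its wild-type counts, so its lower mutant values follow in part from the read minimum.

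The wild-type libraries disagree among themselves, and this median depended on which of them were used. Wild-type 44 was above the mean of wild-type 55 and 59 in 67 of the 80 genes, by a median of 0.79 (log2 of CPM + 1), and heterozygous 45 was above the mean of heterozygous 48 and 51 in 69 genes, by a median of 0.56. Among mice numbered 47 or lower, the mean of the 3 homozygous mutant libraries minus wild-type 44 had a median of -0.06, with 37 of 80 genes positive, beside a median of 0.46 with all libraries. By complex this difference was -0.02 for complex I, -0.07 for complex II, -0.09 for complex III, 0.24 for complex IV and -0.14 for complex V. These values rest on 1 wild-type library and carry no test. Among mice numbered 48 or higher, heterozygous minus wild-type libraries had a median of 0.14, with 54 of 80 genes positive. With the mouse number (47 or lower against 48 or higher) as a term in the edgeR fit, the median fold change between homozygous mutant and wild-type HCs was 0.06 and 0 of the 80 genes were called (1 gene higher at an unadjusted p under 0.05). With sex-linked transcripts as a term instead, the median was 0.51 and 0 genes were called. Without wild-type 44, the median was 0.84 and 20 genes were called higher, where 1.88% of all genes tested were, and without wild-type 55 it was 0.21 with 0 called.

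**Figure D2:**
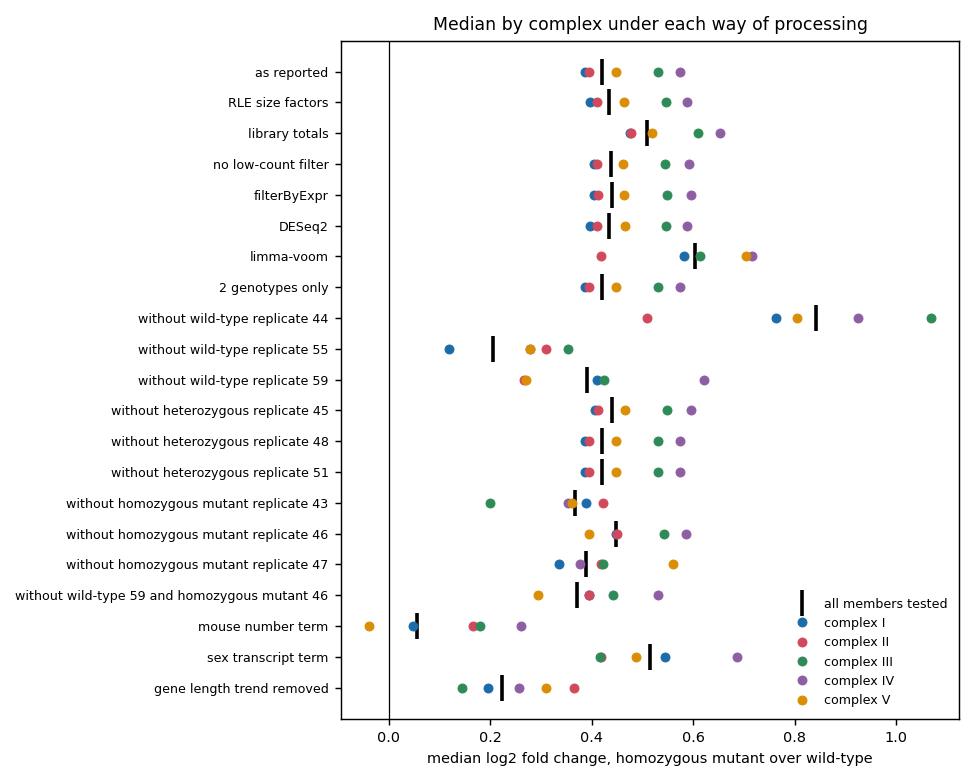
Median log2 fold change between homozygous mutant and wild-type HCs over the OXPHOS genes tested (vertical bars) and over each complex (points), for the fit as reported in the top row and for each alternative way of processing below it. The overall median is 0.42 as reported, 0.84 without wild-type replicate 44 and 0.06 with the mouse number in the model.

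Between heterozygous and wild-type HCs the median depended on which libraries were averaged. With all libraries, the median log2 fold change of heterozygous over wild-type HCs was -0.00, with 40 of 80 genes positive, and the complex medians lay between -0.08 and 0.01. It was 0.36 (64 positive) without wild-type 44, -0.19 (23 positive) without wild-type 55, -0.19 (24 positive) without heterozygous 45 and 0.14 (57 positive) without heterozygous 48. edgeR called 0 of the 80 genes, as it called 0% of all genes tested in each direction, with 1 gene higher (1.79% of all genes tested) and 0 lower (2.73%) at an unadjusted p under 0.05. DESeq2 also called 0, where it called 0.112% of all genes tested higher and 0.191% lower, as did limma-voom, with 0% and 0.00659%. Homozygous mutant over heterozygous HCs gave a median of 0.41, with 65 of 80 genes positive and again 0 called in either direction by edgeR, which called 0% of all genes tested higher and 0.00659% lower. At an unadjusted p under 0.05, 9 genes (11.2%) were higher and 2 (2.5%) lower, beside 2.9% and 3.89% of all genes tested. The 2 lower genes were *Ndufb4*, tested only through its heterozygous counts, and *Ndufa4l2*, tested only through its wild-type counts. The lower mutant values of *Ndufb4* thus follow in part from the read minimum. DESeq2 called 0, where it called 0.402% of all genes tested higher and 0.566% lower. limma-voom called 2 higher, *Ndufa4* and *Ndufa6*, and 0 lower, beside 0.619% and 0.277% of all genes tested. The median of 0.41 was 0.24 without heterozygous 48, 0.59 without heterozygous 45 and -0.01 with the mouse number in the model. The 3 comparisons share libraries, so their values are not independent of each other. For the linear trend with 0, 1 and 2 Dmdo alleles, edgeR called 1 of the 80 genes higher, again *Ndufs4*, at a false discovery rate under 10%, where 0.435% of all genes tested were called higher.

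In complex I, *Ndufs4* (ENSMUSG00000021764, GRCm38 chr13:114287795-114388258, minus strand) encodes an accessory subunit of the arm that oxidizes NADH, and mice that lack it are a model of Leigh syndrome. It had 105, 89.0 and 107 CPM in homozygous mutant HCs, 77.0, 39.4 and 51.4 CPM in heterozygous HCs and 54.1, 26.6 and 15.9 CPM in wild-type HCs. The homozygous mutant libraries stood above all others, and the heterozygous libraries overlapped with wild-type. Means were 100.3 ± 9.79, 55.9 ± 19.2 and 32.2 ± 19.7 CPM (SD, n = 3 each) in homozygous mutant, heterozygous and wild-type HCs. The log2 fold change was 1.64 (SE 0.43, adjusted p = 0.0909) between homozygous mutant and wild-type HCs and 0.80 (SE 0.42, adjusted p = 1.0) between heterozygous and wild-type HCs. The trend was 0.82 per Dmdo allele (SE 0.20, adjusted p = 0.0583). The call was close to the threshold: it was lost without wild-type 55 or 59, heterozygous 51 or any homozygous mutant library (log2 fold change 1.31 to 1.74, adjusted p = 0.14 to 0.286), in the fit of the compared genotypes alone (log2 fold change 1.64, adjusted p = 0.109), and with the mouse number in the model (log2 fold change 1.07, adjusted p = 0.644) or sex-linked transcripts in it (log2 fold change 1.52, adjusted p = 0.715), and without wild-type 59 and homozygous mutant 46 together (log2 fold change 1.42, adjusted p = 0.295). Among mice numbered 47 or lower, its 3 homozygous mutant values were above the value of heterozygous 45 and that of wild-type 44. It followed the split by mouse number as well. Heterozygous 45 and wild-type 44, at 77.0 and 54.1 CPM, were above every library numbered 48 or higher (15.9 to 51.4 CPM). None of its 75-base windows is found in another gene.

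*Ndufs8*, which encodes an iron-sulphur core subunit of complex I, had 127, 64.6 and 146 CPM in homozygous mutant HCs, 82.4, 49.0 and 55.1 CPM in heterozygous HCs and 78.5, 26.6 and 30.5 CPM in wild-type HCs. Homozygous mutant 46 lay below wild-type 44, and the log2 fold change of 1.31 (SE 0.43) did not pass the test (adjusted p = 0.195). *Ndufb9*, an accessory subunit of the membrane arm and the complex I gene of highest mean CPM, had 273, 337 and 304 CPM in homozygous mutant HCs, 246, 131 and 159.5 CPM in heterozygous HCs and 278, 112 and 146 CPM in wild-type HCs. Its values in heterozygous 45 and wild-type 44 were near those of the mutants and the other 4 values of those genotypes were 112 to 159.5 CPM (log2 fold change 0.77, adjusted p = 0.293). *Ndufa11*, an accessory membrane subunit, and *Ndufs1*, the largest iron-sulphur core subunit, had the smallest p among complex I genes with a negative fold change. *Ndufa11* had 61.5, 15.2 and 109 CPM in homozygous mutant HCs, 61.8, 65.7 and 70.1 CPM in heterozygous HCs and 126.5, 56.6 and 56.8 CPM in wild-type HCs, and these ranges overlap (log2 fold change -0.37, SE 0.51). *Ndufs1* was steadier, at 131, 159 and 165.5 CPM in homozygous mutant HCs, 176, 140.1 and 166 CPM in heterozygous HCs and 168, 159 and 185 CPM in wild-type HCs (log2 fold change -0.17, SE 0.26).

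**Figure D3:**
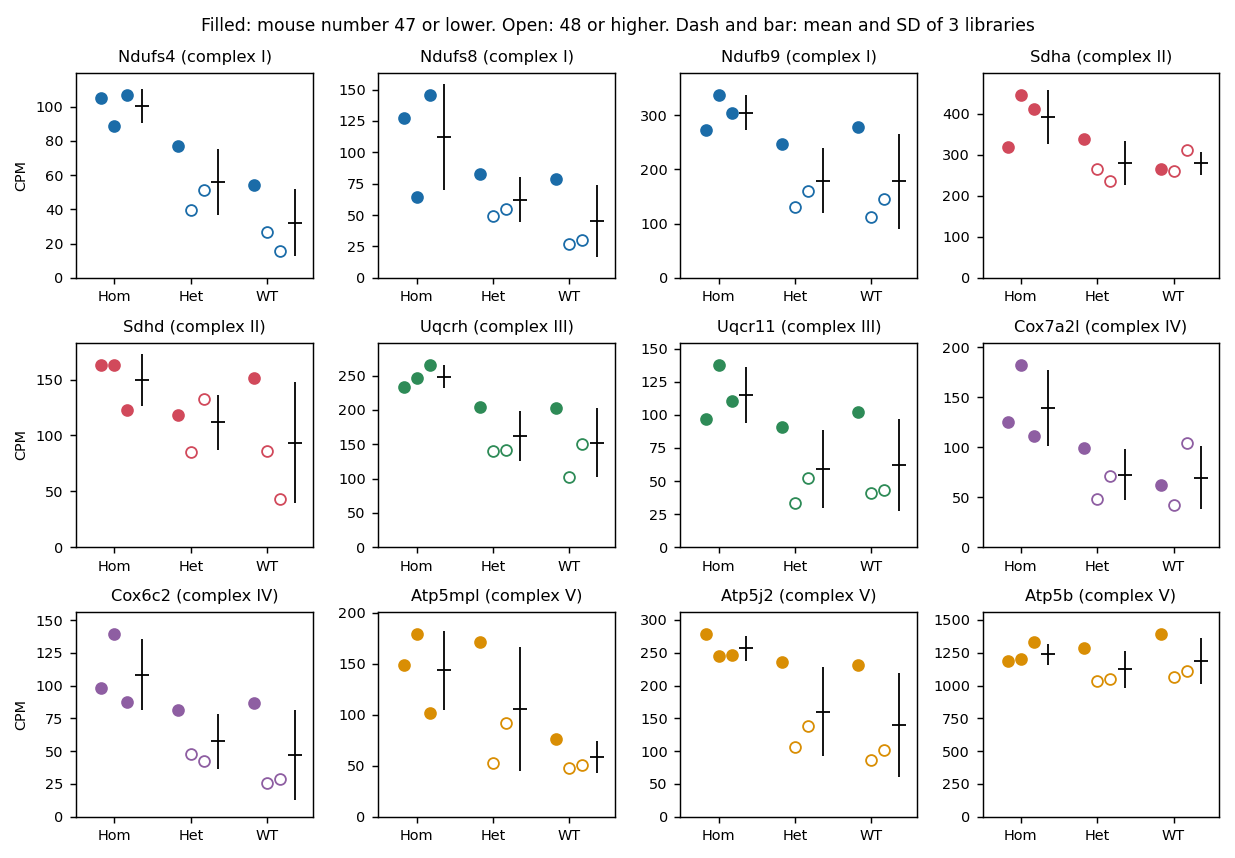
CPM of 12 OXPHOS genes in each library, by genotype, with the y axis from 0 in each panel. Points are libraries, filled for mice numbered 47 or lower and open for 48 or higher, and the dash and bar give the mean and SD of 3 libraries. *Ndufs4* has all homozygous mutant libraries above all others, as do *Uqcrh*, *Cox7a2l*, *Atp5j2* and *Cox6c2*. In *Ndufs4*, *Ndufb9*, *Uqcr11*, *Atp5j2* and *Cox6c2* the filled heterozygous and wild-type points lie above all open ones.

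All 4 genes of complex II, succinate dehydrogenase, which also acts in the citric acid cycle, had a positive fold change and 0 passed the test. *Sdha*, the flavoprotein that oxidizes succinate, was both the gene of smallest p and of highest mean CPM in this complex. It had 319, 446 and 412 CPM in homozygous mutant HCs, 339.6, 266 and 235 CPM in heterozygous HCs and 265, 262 and 311 CPM in wild-type HCs. The homozygous mutant libraries were above the wild-type libraries by a log2 fold change of 0.49 (SE 0.24, adjusted p = 0.395), and wild-type 44 was not its highest wild-type library, as it was for 62 of the 80 OXPHOS genes. *Sdhd*, a membrane anchor, had 163, 163 and 123 CPM in homozygous mutant HCs, 118, 84.8 and 132 CPM in heterozygous HCs and 151, 86.1 and 43.3 CPM in wild-type HCs. Its groups overlap through wild-type 44 (log2 fold change 0.68, SE 0.36, adjusted p = 0.426).

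In complex III, the cytochrome bc1 complex, *Uqcrh*, the hinge protein that contacts cytochrome c1, had 233, 247 and 266 CPM in homozygous mutant HCs, 204, 140.2 and 141 CPM in heterozygous HCs and 203, 103 and 150.2 CPM in wild-type HCs. The homozygous mutant libraries were above all others, with a log2 fold change of 0.71 (SE 0.28, adjusted p = 0.284) over wild-type. *Uqcr11*, a small membrane subunit, had 96.8, 138 and 110.3 CPM in homozygous mutant HCs, 91.1, 33.2 and 52.2 CPM in heterozygous HCs and 102, 41.0 and 43.1 CPM in wild-type HCs. Here wild-type 44 fell within the homozygous mutant range (log2 fold change 0.89, SE 0.41, adjusted p = 0.363). *Uqcrq*, the complex III gene of highest mean CPM, encodes a small subunit and had 257, 197 and 286 CPM in homozygous mutant HCs, 262, 144 and 169 CPM in heterozygous HCs and 405, 125 and 110.1 CPM in wild-type HCs. Wild-type 44 was the highest of all 9 libraries and wild-type 59 the lowest. *Uqcr10*, another small subunit and the only complex III gene with a negative fold change (-0.06, SE 0.52), repeated this, at 144, 62.7 and 103 CPM in homozygous mutant HCs, 72.6, 70.9 and 74.7 CPM in heterozygous HCs and 232, 55.8 and 36.3 CPM in wild-type HCs. *Uqcrc1*, a core protein of this complex that respiring cells need, was listed at 0 in all 9 libraries, although it shares none of its 75-base windows with another gene and overlaps none, whereas its partner *Uqcrc2* had 224 to 240.2 CPM in homozygous mutant, 162 to 235 CPM in heterozygous and 180.4 to 246 CPM in wild-type libraries.

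In complex IV, cytochrome c oxidase, the genes of smallest p were *Ndufa4l2* (lower) and *Cox6c2* and *Cox7a2l* (higher), and 0 passed the test. *Cox7a2l*, which encodes a factor joining complexes III and IV into supercomplexes, had 125, 182 and 111 CPM in homozygous mutant HCs, 98.7, 47.8 and 71.4 CPM in heterozygous HCs and 62.0, 42.6 and 104 CPM in wild-type HCs. The homozygous mutant libraries lay above all others (log2 fold change 1.00, SE 0.37, adjusted p = 0.252), and wild-type 59, not 44, was the highest wild-type library. *Cox6c2* is annotated as a processed pseudogene and had 98.2, 139 and 87.8 CPM in homozygous mutant HCs, 81.8, 48.3 and 42.3 CPM in heterozygous HCs and 87.0, 26.0 and 29.2 CPM in wild-type HCs, so that the lowest homozygous mutant library was barely above wild-type 44 (log2 fold change 1.19, SE 0.44, adjusted p = 0.25). *Cox8a*, the common isoform of the small subunit VIII and the complex IV gene of highest mean CPM, had 369.9, 383 and 505 CPM in homozygous mutant HCs, 392, 273 and 325 CPM in heterozygous HCs and 623, 273 and 276.5 CPM in wild-type HCs. These ranges overlap throughout (log2 fold change 0.10, SE 0.29, adjusted p = 0.935).

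The isoforms of complex IV known from muscle, testis or low oxygen were listed at 0 or had low counts, and since *Uqcrc1* is also listed at 0, a 0 here does not show that a gene is not expressed. The muscle isoform *Cox6a2* and the testis isoforms *Cox7b2* and *Cox8c* were listed at 0 in all 9 libraries. *Cox8b*, another muscle isoform, had 3.5 CPM in heterozygous 45 and no more than 0.0348 CPM elsewhere. *Cox7a1*, a heart and muscle isoform, had 9.11, 0.111 and 0 CPM in homozygous mutant HCs, 7.22, 5.58 and 4.88 CPM in heterozygous HCs and 0.321, 0.036 and 0.11 CPM in wild-type HCs. It was tested only through its heterozygous counts, so its higher heterozygous values follow in part from the read minimum. Its heterozygous libraries were above all wild-type libraries, as in 5.41% of all genes tested and 3.75% of the OXPHOS genes. That 3.75% consists of *Cox7a1* itself, *Ndufb4*, also tested only through its heterozygous counts, and *Ndufs5*. The homozygous mutant libraries of *Cox7a1* were spread over both ranges (log2 fold change of homozygous mutant over wild-type 4.27, SE 2.42, adjusted p = 0.468). *Cox6b2*, a testis isoform, had 5.74, 0.331 and 3.94 CPM in homozygous mutant HCs, 3.27, 4.35 and 10.9 CPM in heterozygous HCs and 0.275, 9.79 and 27.9 CPM in wild-type HCs, with overlap between the groups (log2 fold change -1.92, adjusted p = 0.647). *Ndufa4l2*, a relative of *Ndufa4* induced by low oxygen, had 0 reads in all 3 homozygous mutant libraries and in heterozygous 45 and 48, 2.29 CPM in heterozygous 51, and 0.137, 2.77 and 12.9 CPM in wild-type HCs. Against the limit of 3 reads per library that a count of 0 allows, it was at least 43.3-fold lower in homozygous mutant than in wild-type HCs on the mean CPM, a value carried by wild-type 59, in a gene that was tested only through its wild-type counts, and it did not pass the test of edgeR (adjusted p = 0.245). With *Ndufa4l2* at that bound the median over the 80 genes was still 0.42.

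In complex V, *Atp5mpl*, a small membrane protein of the ATP synthase, had 149, 179 and 102 CPM in homozygous mutant HCs, 172, 52.9 and 91.9 CPM in heterozygous HCs and 76.3, 47.8 and 51 CPM in wild-type HCs. The homozygous mutant libraries were above all wild-type libraries, and heterozygous 45 was among the mutants (log2 fold change 1.30, SE 0.38, adjusted p = 0.141). *Atp5j2*, a small membrane subunit, had 278, 245 and 246 CPM in homozygous mutant HCs, 236, 106 and 138 CPM in heterozygous HCs and 232, 86.4 and 102 CPM in wild-type HCs, where all homozygous mutant libraries were above the rest by a small margin over heterozygous 45 and wild-type 44 (log2 fold change 0.87, SE 0.35, adjusted p = 0.286). *Atp5b*, the catalytic beta subunit, had the highest CPM of the OXPHOS genes as a mean over the 9 libraries and the smallest ratio of highest to lowest library, at 1185, 1201 and 1331 CPM in homozygous mutant HCs, 1284, 1034 and 1049 CPM in heterozygous HCs and 1391, 1068 and 1111 CPM in wild-type HCs. In homozygous mutant HCs the mean of *Atp5a1*, the alpha subunit, was above it, at 1283 against 1239 CPM. The highest *Atp5b* library was 1.34 times the lowest (log2 fold change 0.06, SE 0.22, adjusted p = 0.952). The complex V genes of smallest p with a negative fold change were *Atp5g3*, an isoform of subunit c, and *Atp5h*, the stator subunit d. *Atp5g3* had 309, 251 and 326 CPM in homozygous mutant HCs, 291, 271 and 251 CPM in heterozygous HCs and 412, 241 and 349 CPM in wild-type HCs (log2 fold change -0.18, SE 0.25). *Atp5h* had 24.7, 10.2 and 19.9 CPM in homozygous mutant HCs, 27.0, 18.9 and 13.7 CPM in heterozygous HCs and 24.3, 12.9 and 23.6 CPM in wild-type HCs (log2 fold change -0.15, SE 0.68), and the groups overlapped in both genes.

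**Figure D4:**
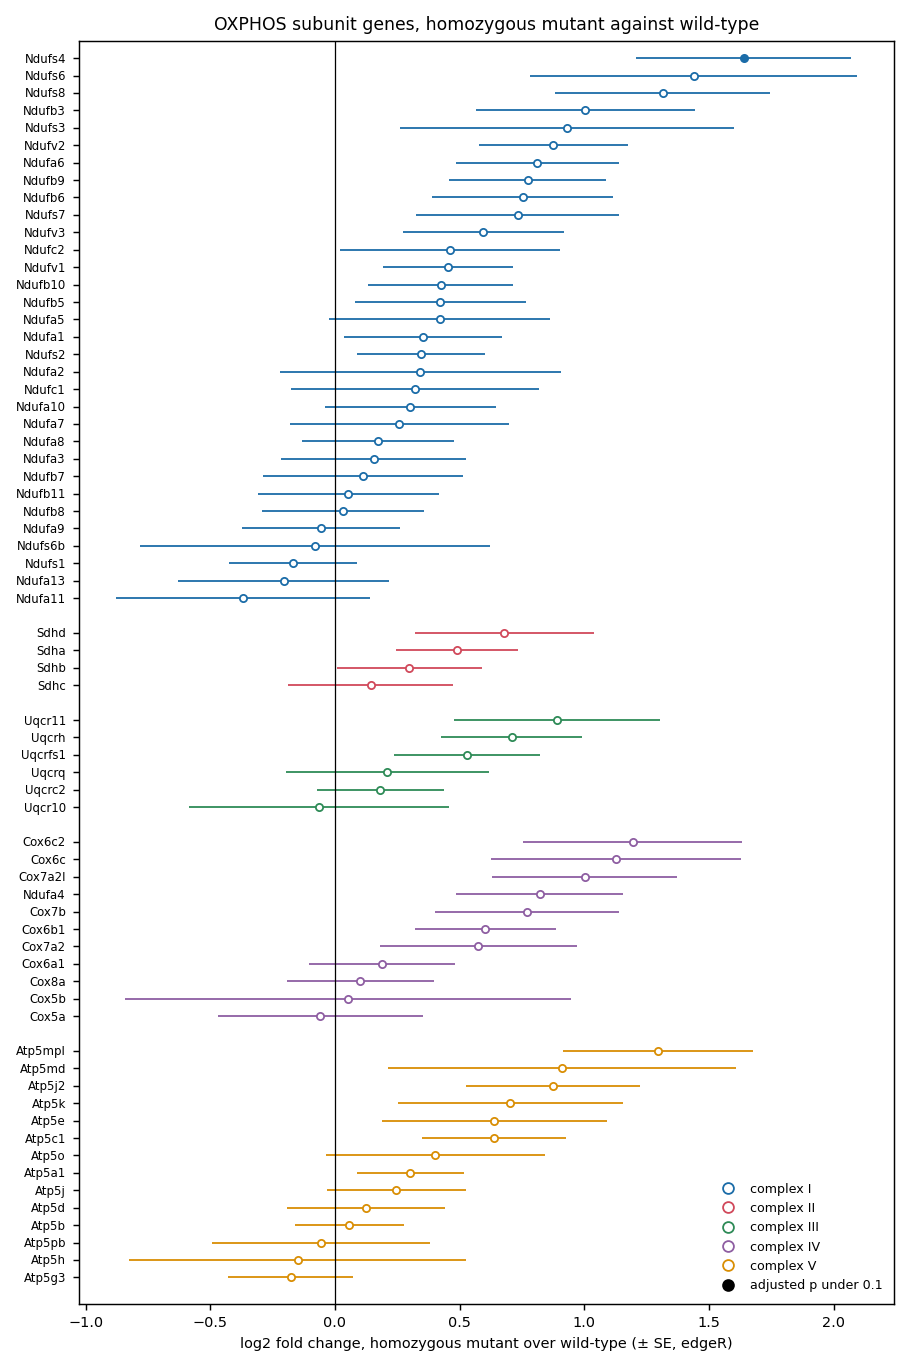
Log2 fold change of homozygous mutant over wild-type HCs with its standard error from edgeR, for the 67 OXPHOS genes whose standard error was 1 or less, ordered within each complex. *Ndufs4*, at 1.64, is the filled point with an adjusted p under 0.1, and 13 genes of larger standard error are not drawn.

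Levels per kb of transcript allow the genes to be compared with each other. The highest mean levels over the 9 libraries were 715 CPM per kb for *Atp5e*, the epsilon subunit of complex V, 691 for *Cox8a*, 618 for *Atp5b*, 542 for *Cox6a1*, the common isoform of complex IV subunit VIa, and 461 for *Atp5a1*. The order of the genotype means differed. *Atp5e* led in homozygous mutant HCs, at 984 against 762.5 for *Cox8a*. *Cox8a* led in heterozygous HCs, at 599.9 against 528 for *Atp5e*, and in wild-type HCs, at 710.4 against 632. These means mix both sides of the split by mouse number. *Atp5e* had 369 CPM in heterozygous 45 against 138 and 160 CPM in heterozygous 48 and 51. In wild-type 44 it had 487 CPM, against 121 and 190 CPM in wild-type 55 and 59. A link of this order to genotype was not tested. *Atp5a1* and *Atp5b* form the catalytic hexamer of the ATP synthase together. *Ndufs4* was at 59.1 CPM per kb in homozygous mutant, 32.9 in heterozygous and 19.0 in wild-type HCs, low among the complex I genes, where *Ndufb9* had a mean of 313.5 CPM per kb.

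Some OXPHOS genes share sequence with another gene, a copy elsewhere or a neighbour that overlaps them. For each gene, the share of the 75-base windows of its chosen transcript that occur in the exons of another gene, on either strand, was computed. It was under 10% for 59 of the 80 genes, with a median of 123 CPM, and 10% or more for 21 genes, with a median of 33.2 CPM. Of these 21, 9 share windows with a gene that overlaps them and 12 only with genes elsewhere. Of the 9 genes with 30% or more, 6 were below 20 CPM, while *Ndufb9* (20.3%) and *Uqcrc2* (23.8%), which share windows with an overlapping gene, were at a mean of 221 and 208 CPM. The overlapping gene lies on the same strand for *Ndufb9* and on the other strand for *Uqcrc2*. *Atp5g2*, a subunit c isoform with 86.9% of its windows shared, had 0.0695, 11.5 and 0.0636 CPM in homozygous mutant HCs, 4.61, 5.01 and 2.46 CPM in heterozygous HCs and 0.55, 3.24 and 0.165 CPM in wild-type HCs. *Cox7c*, a common small subunit of complex IV with 50.4% of its windows shared, had 18.5, 9.996 and 9.28 CPM in homozygous mutant HCs, 32.9, 13.6 and 4.46 CPM in heterozygous HCs and 70.7, 9.83 and 0.385 CPM in wild-type HCs. Neither gene separated the genotypes, and the sources used here do not say how reads with several matches were counted. The same doubt holds for the 4 processed pseudogenes among the 80 genes, *Ndufa11b*, *Ndufb4c*, *Ndufs6b* and *Cox6c2*. *Cox6c2* had 16892 reads in all, against 8332 for its parent *Cox6c*, and *Ndufb4c*, all of whose windows are shared, had 809 reads against 340 for *Ndufb4*, so levels within these pairs are uncertain. The median fold change of homozygous mutant over wild-type HCs was 0.42 both in the 59 genes with few shared windows (50 positive) and in the 76 genes that are not pseudogenes (62 positive).

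**Figure D5:**
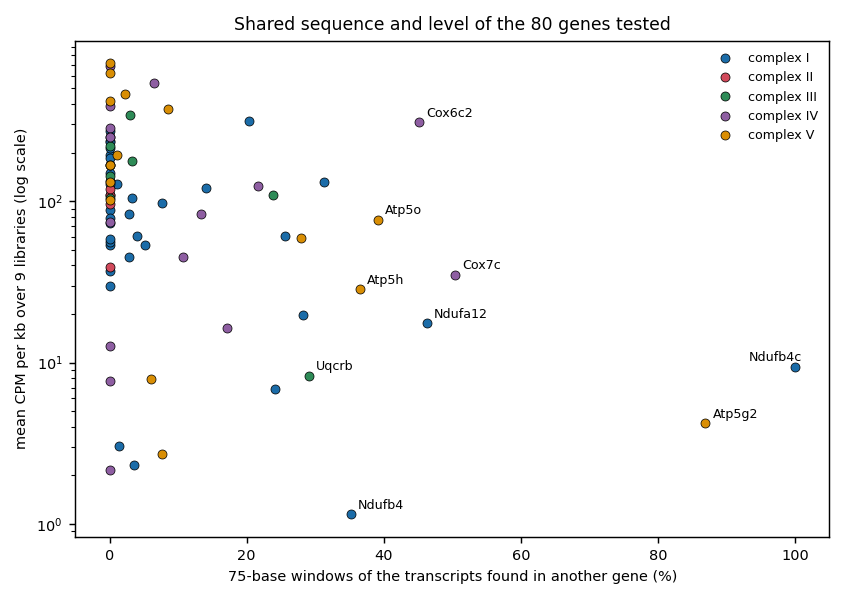
Share of 75-base windows found in another gene (x axis, percent) against the mean level over 9 libraries (y axis, CPM per kb on a log scale) of the 80 OXPHOS genes tested, coloured by complex. *Ndufb4c*, at 100%, and *Atp5g2*, at 86.9%, lie among the low genes, while *Cox6c2*, at 45.2%, is high.

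Short matches to the binding motifs of regulators known for OXPHOS genes were looked up in the promoters, from 250 bases before to 50 bases after the start of transcription (RefSeq, GRCm38.p6), for the 64 of 80 genes with an entry. NRF1 and the ETS family member GABP are transcription factors known to act on many respiratory genes. The 64 genes passed the read minimum in these cells, whereas the 27025 genes set beside them were all those with an entry, tested or not. The shares thus also compare genes read here with genes not chosen by reads. The NRF1 letters GCATGCGC, or their reverse GCGCATGC, were in the promoters of 8 genes (12.5%), against 3.05% of all 27025 genes with an entry, and the ETS letters CCGGAAG, or CTTCCGG, in 16 (25%), against 9.93%. In 4 of the NRF1 promoters both orientations overlap at 1 place. The YY1 letters AAGATGG or CCATCTT were in 17.2% against 7.28%, the CCAAT letters in either orientation in 43.8% against 41.1%, and the TATA letters TATAAA or TTTATA in 7.81% against 15.7%. Examples are shown from the genes described above and their complexes, with the motif in capitals.
Ndufa6, NRF1, chr15:82354356-82354385, minus strand: tccgcggtagaGCATGCGCattgcagagcc
Sdhb, NRF1, chr4:140961206-140961235, plus strand: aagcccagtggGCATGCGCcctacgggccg
Sdhd, ETS, chr9:50603878-50603906, minus strand: ccgtctcctgcCTTCCGGttcacgcttca
Uqcr11, ETS, chr10:80406870-80406898, minus strand: ttctctcctccCCGGAAGtagatgtcaat
These are matches of letters only. *Ndufa6*, an accessory subunit of complex I, had 221, 205 and 166 CPM in homozygous mutant HCs, 155, 88.5 and 82.8 CPM in heterozygous HCs and 151, 66.6 and 119.7 CPM in wild-type HCs, with the homozygous mutant libraries above all others (log2 fold change 0.81, SE 0.33, adjusted p = 0.288).

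Other genes of mitochondria and of protein synthesis were read beside the OXPHOS genes, from lists chosen with earlier results known. Of the 13 mitochondrially encoded subunits, 7 were tested, and *mt-Co2*, *mt-Co3*, *mt-Atp6*, *mt-Atp8*, *mt-Nd3* and *mt-Nd4l* were below the read minimum. The 7 tested all had a positive fold change of homozygous mutant over wild-type HCs, with a median of 0.72, and 0 of 7 was called. The order over libraries differed from that of the nuclear genes: the sum of the 13 was 13873, 15224 and 12635 CPM in homozygous mutant libraries 43, 46 and 47, 15049, 7894 and 9581 CPM in heterozygous libraries 45, 48 and 51, and 5754, 6247 and 12432 CPM in wild-type libraries 44, 55 and 59. Wild-type 44, high for the nuclear subunits, was thus the lowest library for this sum, to which the subunits below the minimum add few reads. The 6 chain proteins outside the name rule had a median of -0.18, with 3 positive, 3 negative and 0 called. The 47 assembly factors had a median of 0.16 with 0 called, the 16 genes of pyruvate dehydrogenase and the citric acid cycle 0.11 with 0 called and the 11 regulators of mitochondrial biogenesis 0.13 with 0 called. At an unadjusted p under 0.05, 5 of the mitochondrially encoded subunits (71.4%), 2 assembly factors (4.26%), 0 of the chain proteins, 2 citric acid cycle genes (12.5%) and 0 regulators were higher. The share over all genes tested was 4.92%. At the same p, 1 assembly factor (2.13%) and 1 regulator (9.09%) were lower, beside 8.19% of all genes tested. Cytosolic ribosomal protein genes, which share short transcripts and high expression with the OXPHOS genes, had a median of 0.78, with 76 of 84 positive. Of the 84, 2 were called higher, *Rpl22* and *Rpl15*, where 0.237% of all genes tested were. At an unadjusted p under 0.05, 27 (32.1%) were higher, beside the 22.5% of the OXPHOS genes. The 75 mitochondrial ribosomal protein genes had a median of 0.22 with 0 called and 4 (5.33%) higher at an unadjusted p under 0.05, near the share of all genes tested.

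The fold change also followed transcript length across all genes tested. With the genes split by length into 5 classes of equal size, in the class of the shortest transcripts (55 to 1451 bases) the median log2 fold change of homozygous mutant over wild-type HCs was 0.31, and in the next classes, up the length scale, it was 0.02, -0.04, -0.15 and -0.14. Of the 80 OXPHOS genes, 61 were in the shortest class, 12 in the next and 0 in the longest. A length correction was fitted on another measure, the length of all annotated exons of a gene. With that trend taken out of each library, the median of the 80 genes was 0.22 with 58 positive. *Ndufs4* remained called (log2 fold change 1.67, adjusted p = 0.0759). The trend on transcript length itself was not taken out. Within libraries the shortest class had a median deviation of 0.35, -0.08 and 0.25 in homozygous mutant, 0.19, -0.14 and -0.05 in heterozygous and 0.24, -0.28 and -0.49 in wild-type libraries, in the order of their numbers. The part of length, and of what the mouse numbers stand for, in the level of the OXPHOS genes was not tested beyond these fits.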

How the data were processed

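RNA was extracted from sorted HCs of 9 P1 mice, 1 library per mouse. Alignment by the authors was to GRCm38 (HISAT2 2.0.4) and gene counting used HTSeq. The deposited values are raw, unnormalized counts of 43808 Ensembl genes per library. The library kit keeps strand, but the strand and multiple-match settings of the counting are not stated in the sources used here. RNA integrity was lower in 1 wild-type and 1 homozygous mutant sample than in the others, and lowest in the wild-type one. The sources used here do not give the mouse numbers of these 2 samples. The range of sorted cells per sample in the paper reaches lower in homozygous mutants than in the other genotypes. The part of RNA integrity and cell number in these results was not tested.

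A gene was tested if 2 of the 3 libraries of some genotype held 20 reads of it (15184 genes). The members and lists were chosen with earlier results of these data known. The main test was edgeR 4.0.16 (quasi-likelihood, robust, TMM factors, all 9 libraries in 1 fit), with Benjamini-Hochberg adjustment over all genes tested and a call at a false discovery rate under 10% with a fold change above 1.5, or with no fold threshold for the trend over 0, 1 and 2 Dmdo alleles. Replicates are separate mice. An exact permutation test of 3 mice against 3 reaches 0.1 at best, so the p-values of single genes come from the fit over all genes. On simulated counts of these libraries the test was checked before use, and it recovered few changes of 1.5-fold or 2-fold.

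Genes described library by library were those called, *Ndufs4*, the 2 genes per complex of smallest p in each direction between homozygous mutant and wild-type HCs, the gene of highest mean CPM per complex and tissue-restricted isoforms. *Ndufa6*, *Atp5g1*, *Atp5g2* and *Cox7c* were added after their values were seen. CPM per kb and the length classes use the longest transcript of GENCODE vM21 with a consensus coding sequence, or else the longest transcript. The gene length correction uses the length of all annotated exons of a gene instead. Shared windows of 75 bases were taken from the transcript used for CPM per kb. They were matched on either strand to the exons of the same annotation. Alternatives covered other size factors and filters, DESeq2 1.42.0, limma-voom (limma 3.58.1) with sample quality weights, the compared genotypes alone, each library left out in turn, wild-type 59 and homozygous mutant 46 left out together, terms for mouse number and for sex-linked transcripts, a gene length correction and no fold threshold. The comparisons within mouse numbers, without pseudogenes and without genes of shared sequence were added after the data were seen. R 4.3.3 and Python 3.11.15 were used.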

Additional observations from a re-analysis of the deposited data

How the results depend on the processing

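The number of OXPHOS genes called between homozygous mutant and wild-type HCs was 1, and it was 5 with no filter on low counts, 5 with DESeq2 (4 higher and *Ndufa4l2* lower), 4 with limma-voom, and 0 with the compared genotypes alone, without wild-type 59 and homozygous mutant 46 together, with the mouse number in the model and with sex-linked transcripts in the model. It was 0 to 20 with 1 library left out, 20 only without wild-type 44, 2 without heterozygous 45 or 48, and 0 in every other case. For the trend with Dmdo alleles the 1 call became 4 with no filter, 5 with DESeq2, 19 with limma-voom, 0 without both libraries, with the mouse number and with sex-linked transcripts, and 0 to 28 with 1 library left out, again highest without wild-type 44. limma-voom called 2 genes between homozygous mutant and heterozygous HCs, where other alternatives called 0. The cause was not tested in any of these cases. The number of calls over all genes tested moved with the same settings: between homozygous mutant and wild-type HCs, the share of all genes called higher was 0.237% as reported, 0.84% with no filter, 2.34% with DESeq2, 0.79% with limma-voom, 0.145% with the compared genotypes alone, 0.0263% without both libraries, 0.0198% with the mouse number, 0.00659% with sex-linked transcripts and 1.88% without wild-type 44. For the trend it was 0.435% as reported, 0.711% with no filter, 2.46% with DESeq2, 2.08% with limma-voom, 0.0263% without both libraries, 0.0329% with the mouse number, 0.00659% with sex-linked transcripts and 2.45% without wild-type 44.

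The median log2 fold change of homozygous mutant over wild-type HCs was 0.21 to 0.84 over the 80 genes with 1 library left out, 0.12 to 0.76 for complex I, 0.27 to 0.51 for complex II, 0.20 to 1.07 for complex III, 0.28 to 0.92 for complex IV and 0.27 to 0.80 for complex V. With the mouse number in the model it was 0.0555 over the 80 genes, 0.17 for complex II, 0.26 for complex IV and -0.0388 for complex V, and within numbers of 47 or lower it was -0.0557 over the 80 genes. With the length trend taken out it was 0.26 for complex IV. That correction moved the median of all genes tested by -0.19 between heterozygous and wild-type HCs and by 0.20 between homozygous mutant and heterozygous HCs, so its values there are not used. The other alternatives for these medians moved them by less than the spread between libraries.

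Genes near no change turned in direction. *Uqcr10* was at 0.0093 with library totals, 0.53 with limma-voom, 0.42 with sex-linked transcripts and -0.48 to 1.16 with 1 library left out. With 1 library left out, *Ndufa11* was at -1.06 to 0.13, *Uqcrq* at -0.10 to 1.07, *Cox8a* at -0.10 to 0.61, *Atp5g3* at -0.37 to 0.0026, *Atp5h* at -0.41 to 0.16, *Atp5b* at -0.0145 to 0.18 and *Cox7a1* at -1.49 to 5.35. With the mouse number in the model, *Uqcrq* was at -0.41, *Cox6b2* at 0.88, *Cox8a* at -0.33 and *Atp5b* at -0.15. *Cox8a* was at -0.0091 without both libraries and -0.16 with the length trend taken out. *Atp5g3* was at 0.0081 with limma-voom and 0.0665 with sex-linked transcripts, and *Atp5h* at 0.29 with limma-voom, 0.28 without both libraries and 0.15 with sex-linked transcripts. The paper compares homozygous mutants with wild-type littermates, but the labels do not say which mice share a litter. No analysis paired or blocked by litter was therefore possible. Precision is low for 13 of the 80 genes, those with few reads or with copies elsewhere among them, whose SE was above 1.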
